A study of Mus musculus with 10 samples.

Results

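The TGF-beta and BMP family was examined in ribosome-bound RNA from dorsal and ventral Drd2-expressing, mossy cell (MC)-enriched populations of the mouse hippocampus. Members were the protein-coding genes whose GRCm38 symbol names a TGF-beta, activin or inhibin subunit, BMP or GDF ligand, one of their receptors, a Smad, Noggin, a chordin, a follistatin, Gremlin, Smurf or latent TGF-beta binding protein. Membership followed from the symbols alone, though this rule was chosen with earlier results of these data known. It was met by 67 genes of the 54838 counted. They comprise 28 ligands, 12 receptors, 8 Smads, 10 inhibitors, 4 latent TGF-beta binding proteins and 5 genes that carry a family name but have another function. Of the 67, 51 passed the expression filter of a CPM (counts scaled to the size of a library) above 1 in at least 2 libraries, among 16806 genes tested. The CPM values below are scaled by TMM, edgeR's correction of library sizes.

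The study compared 5 Dorsal with 5 Ventral TRAP (translating ribosome affinity purification) libraries. All came from male MC-TRAP mice (Drd2-Cre;Eef1a1LSL.eGFPL10a/+, C57BL/6 strain) about 10 weeks old, in which Drd2-Cre switches on an EGFP-tagged ribosomal protein L10a, and each library pooled 5 mice, the pool being the unit of replication. The hippocampi of the same mice were divided into both parts, so the groups share animals. Both groups carry the same 2 alleles and differ in the part of the hippocampus taken, a shorter dorsal or a longer ventral piece with the medial ventral pole removed. Drd2-Cre is active in MCs, the excitatory neurons of the dentate hilus, but also in other Drd2-expressing cells, GABAergic interneurons among them, so that the model is enriched for MCs and not pure. In such bulk libraries fewer cells of a type and less RNA per cell cannot be told apart.

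Ligands of this family bind a pair of type II and type I serine/threonine kinase receptors at the cell surface, and the type I receptor then phosphorylates receptor-regulated Smads. TGF-betas and activins act mainly through Smad2 and Smad3, BMPs through Smad1, Smad5 and Smad9, and both branches share Smad4 as partner in the nucleus. Secreted antagonists such as chordins, Noggin, gremlins and follistatin hold ligands away from receptors, latent TGF-beta binding proteins store TGF-beta in the matrix, and Smad6, Smad7 and the Smurf ubiquitin ligases damp the signal inside the cell. In the hippocampus, BMP signaling and its antagonists are known from the control of adult neurogenesis in the dentate gyrus, and activin is known as a gene product induced by neuronal activity.

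More members were higher in dorsal than in ventral libraries. The call required an adjusted p under 0.05 from edgeR's quasi-likelihood test, together with group means (CPM plus 1) that differ by more than 0.58 on the log2 scale. By this rule 11 members were dorsal-enriched, namely Inhba, Inhbb, Gdf11, Tgfbr2, Tgfbr3, Bmpr1a, Acvr2a, Chrdl1, Grem1, Bmp1 and Fstl4, and 1 was ventral-enriched, Smad9. The 11 are 21.6% of the 51 tested members, beside 15.7% of all tested genes and 11.4% of tested protein-coding genes, and the 1 is 1.96%, beside 9.85% of all and 10.3% of protein-coding genes. The median log2 fold change (dorsal over ventral) was 0.29 over the tested members, -0.0044 over all tested genes and -0.041 over protein-coding genes, with 35 members higher in dorsal and 16 higher in ventral libraries. The members' median fell to 0.15 with GC content and length corrected for, where that of all tested genes was -0.13, and to 0.18 with no expression filter, where that of all was 0.11. For 10 members, 19.6%, no dorsal library overlapped a ventral one in CPM, a share close to the 18.2% of all and 18.1% of protein-coding genes, and in all 10 the dorsal libraries were the higher ones, which was so for 9.81% of all and 8.5% of protein-coding genes.

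By role, 4 of 12 receptors, 3 of 16 tested ligands, 2 of 8 tested inhibitors, 2 of the 5 genes of other function and none of 3 tested latent TGF-beta binding proteins were dorsal-enriched. The shares were 33.3%, 18.75%, 25%, 40% and 0%, beside 15.7% of all tested and 11.4% of tested protein-coding genes. Bmpr1a and Acvr2a of the receptors lost the call with GC content and length corrected for. Of 7 tested Smads none was dorsal-enriched and 1, or 14.3%, was ventral-enriched, beside 9.85% of all and 10.3% of protein-coding genes. With so few genes in each, the roles cannot be ranked by these counts. The median log2 fold change was 0.49 over the receptors, 0.21 over the ligands, 0.39 over the inhibitors and -0.043 over the Smads. The called members lie on 10 chromosomes, and 9 of the 12 share no exon sequence with another gene of the annotation.

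**Figure D1:**
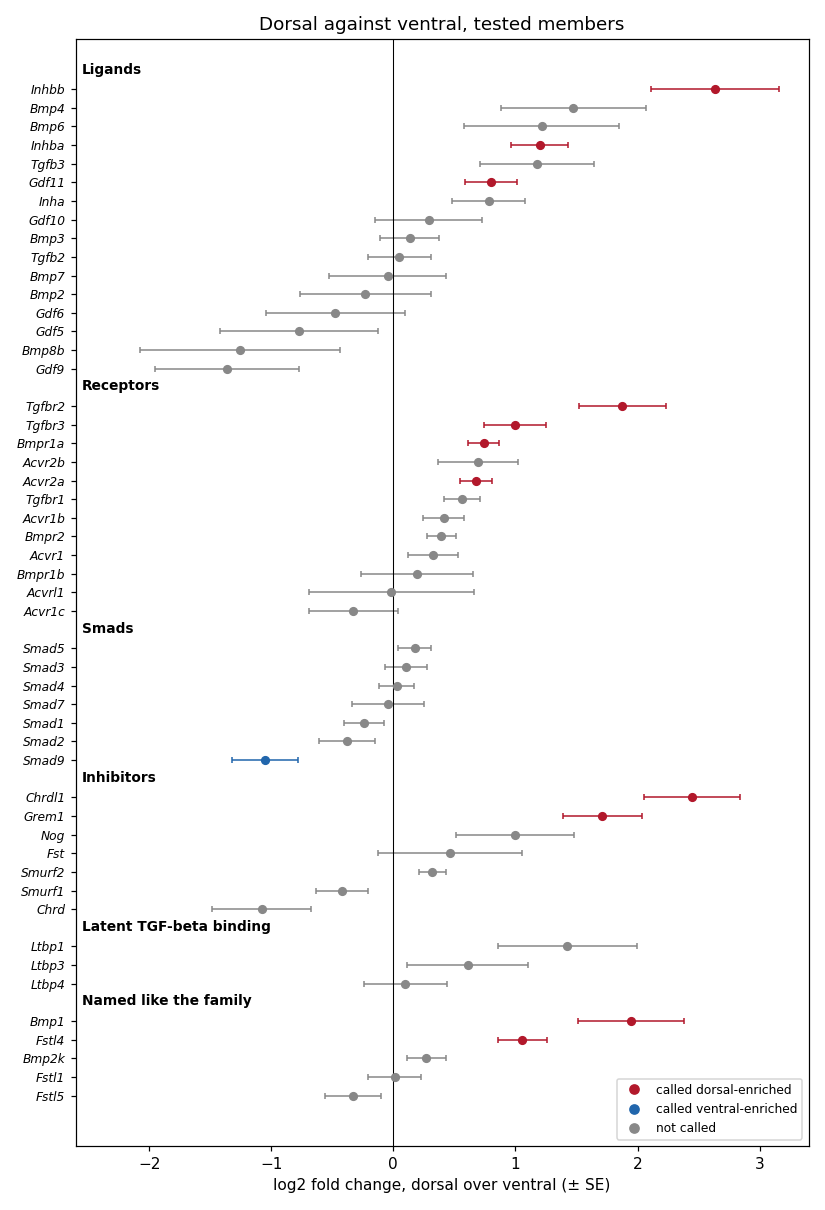
The log2 fold change of dorsal over ventral libraries (x axis, bars are standard errors from edgeR, 5 libraries a group) is drawn for the tested members reported here, grouped by role. The 11 dorsal-enriched members lie among ligands, receptors, inhibitors and genes of other function, and Smad9 is the 1 ventral-enriched member.

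The promoter sequences of 4 called members are shown because they place the called genes on the genome and show which Smad-related sequence motifs precede them. Inhba and Tgfbr2 stand for ligand and receptor, Grem1 for the antagonists and Smad9 for the opposite direction. Each run holds the 250 bases before the RefSeq start of transcription (GRCm38.p6), read 5′ to 3′ on the strand of the gene. Capitals mark matches, on either strand, to the Smad box palindrome GTCTAGAC, to CAGAC or to GGCGCC, none of which contains another.
Inhba: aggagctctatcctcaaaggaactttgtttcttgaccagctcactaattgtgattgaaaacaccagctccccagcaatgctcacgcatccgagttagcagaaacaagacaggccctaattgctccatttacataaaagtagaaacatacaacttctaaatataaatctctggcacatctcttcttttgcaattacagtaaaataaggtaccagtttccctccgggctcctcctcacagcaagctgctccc
Tgfbr2: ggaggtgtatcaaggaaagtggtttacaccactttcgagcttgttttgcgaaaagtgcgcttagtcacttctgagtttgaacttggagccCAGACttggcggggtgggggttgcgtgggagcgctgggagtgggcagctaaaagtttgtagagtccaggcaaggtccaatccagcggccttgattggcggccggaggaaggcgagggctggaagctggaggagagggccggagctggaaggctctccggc
Grem1: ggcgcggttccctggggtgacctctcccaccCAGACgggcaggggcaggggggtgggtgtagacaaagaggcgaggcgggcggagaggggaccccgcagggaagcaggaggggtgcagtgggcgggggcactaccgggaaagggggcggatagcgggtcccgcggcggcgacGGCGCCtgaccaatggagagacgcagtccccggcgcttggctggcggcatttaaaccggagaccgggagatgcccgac
Smad9: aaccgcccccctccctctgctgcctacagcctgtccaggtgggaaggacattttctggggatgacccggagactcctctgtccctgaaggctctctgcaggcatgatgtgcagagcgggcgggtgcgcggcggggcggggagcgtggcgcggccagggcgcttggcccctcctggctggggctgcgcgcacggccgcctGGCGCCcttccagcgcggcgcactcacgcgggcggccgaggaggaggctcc
The Inhba window is chr13:16011601-16011850 on the plus strand, that of Tgfbr2 chr9:116175364-116175613 on the minus strand, that of Grem1 chr2:113758649-113758898 on the minus strand and that of Smad9 chr3:54755332-54755581 on the plus strand. RefSeq windows were matched for 9 of the 12 called members, all but Chrdl1, Tgfbr3 and Bmp1. CAGAC was found in 4 of these 9 and in 42.2% of 32851 mouse promoter windows of the same length, GGCGCC in 3 of 9 and in 9.59% of all, and GTCTAGAC in 0 of 9 and in 0.167% of all. In Tgfbr2 the CAGAC match begins 160 bases before the start, in Grem1 CAGAC begins 219 and GGCGCC 78 bases before it, and in Smad9 GGCGCC begins 51 bases before it. The Inhba window holds none of the 3 motifs. These matches describe the letters and show no binding.

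Among the ligands, the subunits of activin and inhibin held the clearest differences. Inhba encodes the beta A subunit, which pairs with itself as activin A. In dorsal replicates 1 to 5 Inhba measured 32.4, 24.9, 22.2, 31.9 and 31.0 CPM, and in ventral replicates 1 to 5 it measured 7.55, 13.9, 21.02, 9.11 and 12.4 CPM. Every dorsal library lay above every ventral one, though ventral replicate 3 came close to dorsal replicate 3. The means were 28.5 ± 4.60 and 12.8 ± 5.25 CPM (SD, n = 5 each), a log2 fold change of 1.20 ± 0.23 (SE) with an edgeR adjusted p = 0.00197.

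Inhbb, the beta B subunit of activin B, was far less abundant. Its dorsal libraries held 0.753, 2.73, 3.68, 2.76 and 2.51 CPM and its ventral libraries 0.388, 1.06, 0.0844, 0.443 and 0.236 CPM in replicate order. Dorsal replicate 1 lay below ventral replicate 2, so the groups overlapped, and the lowest ventral value rests on 1 count, where 3 counts correspond to 0.142 to 0.282 CPM over the 10 libraries. The log2 fold change was 2.64 ± 0.52 (adjusted p = 0.00136, edgeR). The alpha subunit Inha, which turns an activin into an inhibin dimer, averaged 6.09 ± 2.30 and 3.65 ± 0.764 CPM in the dorsal and ventral groups and was not called (log2 fold change 0.78 ± 0.30, adjusted p = 0.0577). It passed the call with DESeq2's size factors (adjusted p = 0.0496), with GC content and length corrected for (0.0224), with that correction and a replicate block (0.0256), and without dorsal replicate 1 (0.0230).

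Gdf11, a growth differentiation factor close to myostatin, measured 25.0, 25.3, 16.1, 21.8 and 22.2 CPM in dorsal and 10.9, 20.2, 14.0, 10.7 and 9.82 CPM in ventral replicates 1 to 5. Only ventral replicate 2 reached into the dorsal range, above dorsal replicate 3. The log2 fold change was 0.80 ± 0.21 with adjusted p = 0.0112.

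The TGF-betas and BMPs themselves gave no call. Tgfb2 was the most abundant ligand per length, at 12.9 ± 4.71 CPM per kb of exon in dorsal and 12.5 ± 4.08 CPM per kb in ventral libraries, and its log2 fold change was 0.05 ± 0.26 (adjusted p = 0.905), a value whose sign turned in 6 of 22 alternative settings. Tgfb3 averaged 6.03 ± 4.40 CPM in dorsal libraries, with a range from 1.22 in replicate 1 to 12.2 in replicate 3, and 2.66 ± 0.586 CPM in ventral ones (log2 fold change 1.18 ± 0.47, adjusted p = 0.0646). Tgfb3 passed the call without dorsal replicate 1 (adjusted p = 0.0191), without dorsal replicate 2 (0.0338) and with no expression filter (0.0219), and 12.4% of its exon sequence is shared with overlapping gene models.

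Bmp3, an atypical BMP that opposes others, averaged 28.2 ± 9.91 and 24.9 ± 7.16 CPM (log2 fold change 0.13 ± 0.24). Bmp7, made among others by the meninges and choroid plexus, averaged 9.74 ± 7.32 and 9.46 ± 4.89 CPM, with dorsal libraries spread from 1.57 to 20.1 CPM (log2 fold change -0.05 ± 0.48, adjusted p = 0.952). Tgfb1 did not pass the filter: it held 37 counts over all 10 libraries and at most 0.844 CPM. Of the 16 members below the filter, 12 are ligands, and Gdf1, Inhbc and Inhbe had 0 counts in every library, which at these depths allows up to 0.282 CPM in the library with the least depth, counting error alone considered. The whole exon sequence of Gdf1 is shared with other gene models, so a count of 0 says little of that gene.

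**Figure D2:**
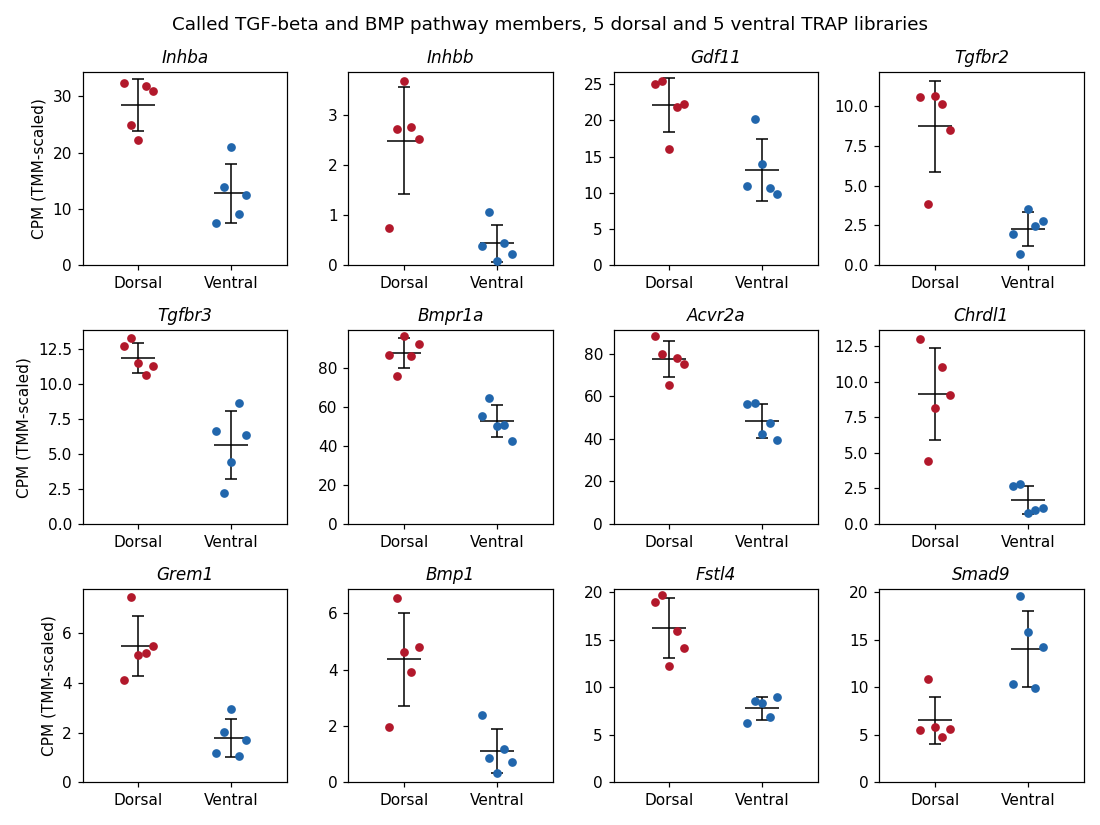
CPM after TMM scaling (y axis, from 0) is drawn for each of the 12 called members, 1 point a library, with the mean and SD of the 5 dorsal (red) and 5 ventral (blue) libraries. The points of the groups do not overlap in 8 of the 11 dorsal-enriched members, and they overlap for Inhbb, Gdf11, Bmp1 and Smad9.

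The receptors were measured throughout, with all 12 above the filter. 10 of them had a positive log2 fold change, 5 had dorsal libraries wholly above the ventral ones, and 6 had an adjusted p below 0.05, of which 4 passed the fold threshold. A positive log2 fold change was found for 8342 of the 16806 tested genes and 6322 of the 13549 protein-coding ones. Dorsal libraries lay wholly above the ventral ones in 9.81% of all tested and 8.5% of protein-coding genes. An adjusted p below 0.05 was reached by 33.6% of all tested and 31.5% of protein-coding genes. Tgfbr2, the type II receptor that binds TGF-beta, showed the largest fold change of the 12. It measured 10.5, 3.83, 10.6, 10.1 and 8.49 CPM in dorsal and 1.997, 0.704, 3.55, 2.47 and 2.79 CPM in ventral replicates 1 to 5. Dorsal replicate 2 was lower than the other dorsal libraries and near ventral replicate 3, without overlap. The log2 fold change was 1.87 ± 0.36 (adjusted p = 0.00179).

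Tgfbr3, or betaglycan, a co-receptor that presents TGF-beta and lets inhibin bind activin receptors, was also dorsal-enriched. Its dorsal libraries held 12.7, 13.3, 11.4, 10.6 and 11.2 CPM, a narrow range, and its ventral ones 6.60, 2.20, 4.39, 8.60 and 6.37 CPM. The groups did not overlap, and the log2 fold change was 0.998 ± 0.252 (adjusted p = 0.00898). Tgfbr1, the type I partner of Tgfbr2, measured 23.7, 18.5, 20.9, 20.1 and 24.1 CPM in dorsal and 14.4, 13.3, 14.9, 15.1 and 14.3 CPM in ventral replicates 1 to 5. All dorsal values exceeded all ventral ones, yet its log2 ratio of 0.55 stayed under the threshold (log2 fold change 0.56 ± 0.15, adjusted p = 0.0103), so it was not called. With DESeq2's test (log2 fold change 0.60) and without dorsal replicate 2 (0.62) it passed.

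Bmpr1a, a type I receptor for BMPs, measured 87.0, 76.3, 96.8, 86.5 and 92.6 CPM in dorsal and 55.7, 64.8, 50.5, 51.1 and 42.8 CPM in ventral replicates 1 to 5. Its lowest dorsal library, replicate 2, lay above the highest ventral one, also replicate 2, and the log2 fold change was 0.74 ± 0.13 (adjusted p = 0.000862). Acvr2a, a type II receptor used by activins and several BMPs, was close to it in level, with 88.6, 79.97, 65.3, 78.0 and 75.4 CPM in dorsal and 56.2, 57.0, 42.2, 47.4 and 39.7 CPM in ventral replicates 1 to 5. Again no library overlapped (log2 fold change 0.68 ± 0.13, adjusted p = 0.00221). Both calls were lost when GC content and transcript length were corrected for, where the log2 fold change was 0.55 for Bmpr1a (adjusted p = 0.00819) and 0.27 for Acvr2a (adjusted p = 0.144). Acvr2a shares 7.84% of its exon sequence with Orc4.

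Among the remaining receptors, Bmpr2, the type II receptor of BMPs, was the most abundant, at 525 ± 56.6 and 399 ± 73.1 CPM in the dorsal and ventral groups. Its adjusted p was 0.0236 but its log2 fold change of 0.39 ± 0.12 was under the threshold, and the sign turned to -0.12 with the GC and length correction. Acvr1b, a type I receptor of activins, averaged 80.2 ± 8.54 and 59.8 ± 17.0 CPM (log2 fold change 0.41 ± 0.17, adjusted p = 0.0691), and it was called without ventral replicate 1 (0.59, adjusted p = 0.00752). Acvr1, a type I receptor of BMPs, averaged 16.01 ± 2.09 and 12.4 ± 3.39 CPM and gave an adjusted p = 0.229. Acvr2b averaged 6.34 ± 1.80 and 4.01 ± 1.88 CPM (adjusted p = 0.116).

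Bmpr1b and Acvr1c varied widely among the ventral libraries. Bmpr1b, the other type I BMP receptor, ranged from 12.2 to 17.4 CPM in dorsal libraries and from 2.33 in ventral replicate 1 to 33.2 in ventral replicate 3. Acvr1c, a type I receptor of activin and nodal-type ligands, was highest in the same ventral replicate 3 at 56.3 CPM, while the other ventral libraries held 13.04 to 27.9 CPM and the dorsal ones 16.2 to 38.6 CPM. Neither was called (adjusted p = 0.772 and 0.518).

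Set on a scale per length, the receptors spanned a wide range. Among type II receptors the dorsal level was 29.2 ± 3.15 CPM per kb for Bmpr2, 13.6 ± 1.48 for Acvr2a, 1.61 ± 0.459 for Acvr2b and 1.06 ± 0.350 for Tgfbr2. The ventral levels kept that order, at 22.2 ± 4.07, 8.53 ± 1.39, 1.02 ± 0.479 and 0.281 ± 0.129 CPM per kb. Acvr2b and Tgfbr2 differed by less than their summed SDs in dorsal libraries. Among type I receptors Acvr1b led in dorsal libraries at 18.1 ± 1.93 CPM per kb, followed by Bmpr1a at 13.8 ± 1.22, Acvr1 at 3.32 ± 0.433, Tgfbr1 at 3.28 ± 0.371, Bmpr1b at 2.55 ± 0.393, Acvr1c at 2.29 ± 1.05 and Acvrl1 at 0.136 ± 0.0899. Acvr1, Tgfbr1, Bmpr1b and Acvr1c lay within a narrow span.

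**Figure D3:**
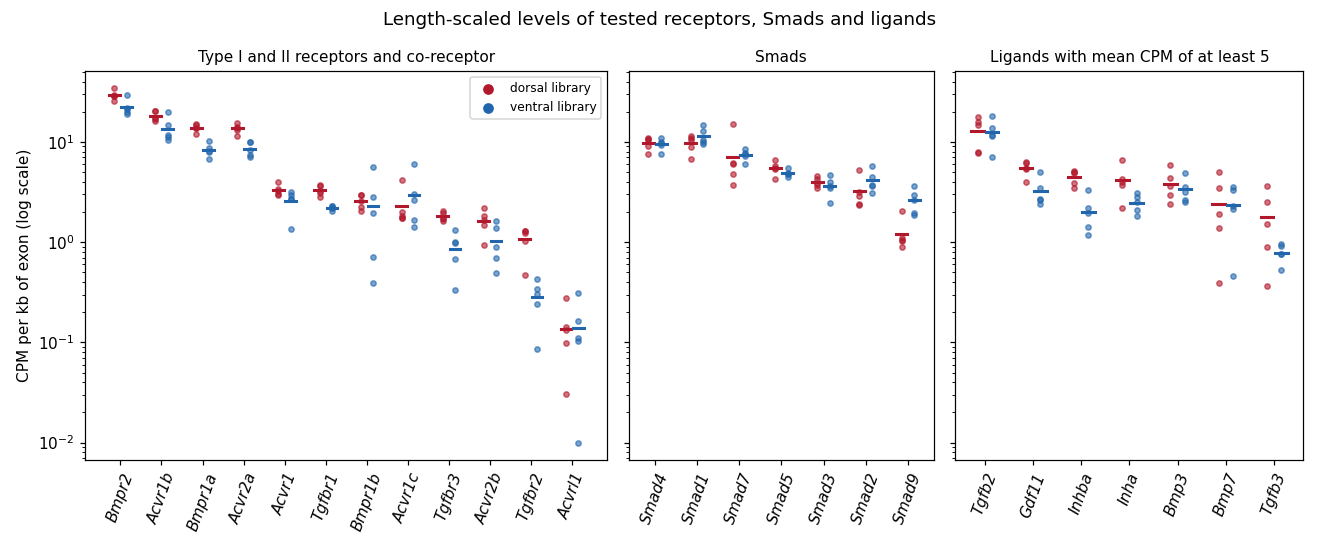
Levels in CPM per kb of exon (y axis, log scale) are drawn for the 12 receptors, the 7 tested Smads and the 7 ligands with a group mean CPM of at least 5, points being libraries and bars group means. Bmpr2 leads the receptors in both groups, Tgfb2 leads the ligands, and a library of Acvrl1 with 0 counts is drawn at 0.01.

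Of the Smads, Smad9 alone was called, in the ventral direction. Smad9, a receptor-regulated Smad of the BMP branch, measured 5.46, 10.8, 5.86, 4.80 and 5.58 CPM in dorsal and 10.4, 19.5, 15.8, 9.93 and 14.3 CPM in ventral replicates 1 to 5. Dorsal replicate 2 stood apart from the other dorsal libraries and lay above 2 ventral ones, so the groups overlapped. The log2 fold change was -1.05 ± 0.27 (adjusted p = 0.0102), a ventral mean 2.15-fold the dorsal one, and without dorsal replicate 2 the call held with a log2 fold change of -1.33 (adjusted p = 0.00231).

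The other Smads of the BMP branch were more abundant and were not called. Smad1 averaged 60.5 ± 11.9 CPM dorsally and 71.8 ± 13.8 CPM ventrally (log2 fold change -0.24 ± 0.16), and Smad5 averaged 40.9 ± 6.36 and 36.2 ± 2.86 CPM (0.18 ± 0.14). Per kb of exon, Smad9 was the lowest of the 7 tested Smads in both groups, at 1.21 ± 0.458 CPM per kb in dorsal and 2.60 ± 0.743 CPM per kb in ventral libraries, against 9.67 ± 1.91 and 11.5 ± 2.21 for Smad1.

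On the TGF-beta and activin branch, Smad3 averaged 22.02 ± 2.53 and 20.3 ± 4.48 CPM (log2 fold change 0.10 ± 0.17, adjusted p = 0.667) and Smad2 28.2 ± 10.6 and 36.2 ± 9.06 CPM (-0.38 ± 0.23, adjusted p = 0.208). Without dorsal replicate 1, which held 46.3 CPM, Smad2 passed the call as ventral-enriched (-0.60, adjusted p = 0.0276). The common Smad4 averaged 36.3 ± 5.32 and 35.5 ± 4.70 CPM, with a log2 fold change of 0.03 ± 0.14 (adjusted p = 0.905). The inhibitory Smad7 averaged 32.2 ± 20.3 and 33.5 ± 4.04 CPM (adjusted p = 0.926), and its dorsal spread came from replicate 2 at 67.6 CPM, the other dorsal libraries holding 16.8 to 28.1 CPM. The other inhibitory Smad, Smad6, was under the filter at no more than 0.792 CPM.

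Among secreted antagonists, 2 were dorsal-enriched, Chrdl1 and Grem1. Chrdl1, chordin-like 1, which binds BMPs, measured 12.98, 4.42, 8.18, 11.1 and 9.04 CPM in dorsal and 2.66, 2.82, 0.760, 0.949 and 1.13 CPM in ventral replicates 1 to 5. Every dorsal library was higher, with dorsal replicate 2 the nearest to the ventral ones, and the mean was 5.49-fold higher (log2 fold change 2.45 ± 0.39, adjusted p = 0.000593). Chrd, chordin itself, averaged 2.97 ± 1.20 and 6.28 ± 2.91 CPM, and missed the call (log2 fold change -1.08 ± 0.40, adjusted p = 0.0531). Chrd passed in 6 of the 22 alternative settings, among them DESeq2's test (adjusted p = 0.0477) and the omission of dorsal replicate 3 (0.0385) or ventral replicate 1 (0.0103).

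Grem1, gremlin 1, which binds BMP2-type and BMP4-type ligands, measured 4.14, 7.47, 5.11, 5.23 and 5.5 CPM in dorsal and 1.17, 2.02, 2.96, 1.08 and 1.70 CPM in ventral replicates 1 to 5. No library overlapped, and the log2 fold change was 1.71 ± 0.32 (adjusted p = 0.00172). Inside the cell, the ubiquitin ligase Smurf2 was higher in all dorsal libraries at 62.2 ± 6.06 against 49.8 ± 3.32 CPM, with adjusted p = 0.0410 and a log2 fold change of 0.32 ± 0.11 under the threshold. Smurf1 averaged 18.3 ± 3.72 and 24.2 ± 6.99 CPM (adjusted p = 0.141).

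The latent TGF-beta binding proteins were scarce. Ltbp4, the most abundant of them, averaged 3.70 ± 1.80 and 3.51 ± 0.5804 CPM (log2 fold change 0.10 ± 0.34). Besides Ltbp4, the 13 uncalled members with a mean under 5 CPM in both groups had group means from 0.285 to 4.96 CPM and log2 fold changes from -1.36 to 1.47, 7 of them positive, with a lowest adjusted p of 0.0627.

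Several genes carry a family name without being ligands or antagonists of the usual kind. Bmp1 is a metalloprotease that trims procollagens and cleaves chordin. It measured 1.98, 6.56, 4.63, 3.90 and 4.79 CPM in dorsal and 2.39, 0.880, 0.338, 1.20 and 0.708 CPM in ventral replicates 1 to 5. Only dorsal replicate 1 and ventral replicate 1 crossed, and the log2 fold change was 1.94 ± 0.43 (adjusted p = 0.00421).

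Fstl4, a secreted follistatin-like protein, measured 19.0, 19.7, 12.3, 15.98 and 14.1 CPM in dorsal and 6.21, 8.54, 8.36, 6.90 and 8.97 CPM in ventral replicates 1 to 5, without overlap (log2 fold change 1.06 ± 0.20, adjusted p = 0.00172). Fstl1 averaged 23.1 ± 5.46 and 22.5 ± 6.11 CPM (adjusted p = 0.975) and Fstl5 23.5 ± 5.28 and 29.4 ± 11.03 CPM (adjusted p = 0.277). With the GC and length correction Fstl5 passed as ventral-enriched (log2 fold change -0.70, adjusted p = 0.0152). The kinase Bmp2k averaged 32.2 ± 5.22 and 27.4 ± 4.98 CPM (adjusted p = 0.204), and 14.0% of its exon sequence is shared with Paqr3.

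**Figure D4:**
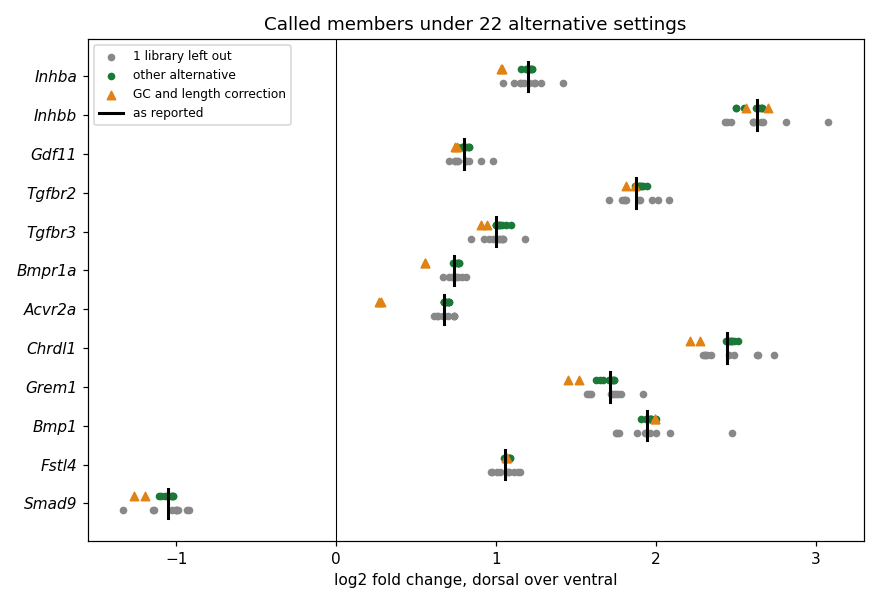
The log2 fold change of each called member (x axis) is drawn as reported (black line), with 1 library left out (grey), with the GC and length correction (orange) and under the other alternatives (green). No point crosses 0, and the orange points of Bmpr1a and Acvr2a lie at 0.55 to 0.56 and at 0.27 to 0.28.

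Pathway genes outside the naming rule were read from a list of other ligands, co-receptors, antagonists, genes of TGF-beta latency and activation, Smad partners and pathway regulators, and textbook target genes. Of 73 matched genes 60 were tested, 11 were dorsal-enriched and 5 ventral-enriched, and the median log2 fold change was 0.10. These are 18.3% and 8.33% of the 60, beside 15.7% and 9.85% of all tested genes and 11.4% and 10.3% of tested protein-coding genes. The antagonists and co-receptors called dorsal-enriched were Nbl1, Bambi and Neo1, and the genes of latency and activation were Itgav, Itgb8, Fbn1 and Furin. The Smad partners, pathway regulators and targets called dorsal-enriched were Tab2, Zeb1, Id4 and Atoh8. Ventral-enriched were the antagonists Vwc2l and Dcn, the integrin subunit Itgb6 and the targets Ccn2 and Pmepa1. With the GC and length correction Bambi, Neo1, Itgb8 and Tab2 lost the call, and Bambi lost it in 13 of the 22 alternative settings. Neo1 also lost it without dorsal replicate 1 (log2 fold change 0.44) or ventral replicate 3 (0.51), and Itgb8 (0.51) and Tab2 (0.57) without ventral replicate 2.

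The largest dorsal changes in that list were those of Fbn1, Atoh8 and Nbl1. Fbn1, fibrillin 1, to which latent TGF-beta complexes attach, averaged 8.86 ± 2.37 and 1.98 ± 0.320 CPM (log2 fold change 2.15 ± 0.29, adjusted p = 0.000203), with 20.1% of its exon sequence shared with another gene model. Atoh8, a transcription factor gene that responds to BMP, averaged 1.62 ± 1.10 and 0.484 ± 0.292 CPM (1.92 ± 0.59, adjusted p = 0.0194), and lost the call without dorsal replicate 2 (adjusted p = 0.0602), without ventral replicate 1 (0.0518), without ventral replicate 5 (0.0623) and with the older dispersion estimates of edgeR 3 (0.0772). Nbl1, a BMP antagonist, averaged 23.1 ± 7.57 and 7.84 ± 1.66 CPM without overlap (1.6 ± 0.25, adjusted p = 0.000498).

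In the ventral direction, Vwc2l, a secreted chordin-like BMP antagonist, averaged 45.1 ± 19.3 CPM in ventral and 5.29 ± 1.56 CPM in dorsal libraries without overlap (log2 fold change -3.08 ± 0.33, adjusted p = 3.81e-05). Ccn2, a target induced by TGF-beta, averaged 13.9 ± 8.0 and 3.34 ± 2.18 CPM (-2.17 ± 0.46, adjusted p = 0.00333), with 23.2% of its exon sequence shared. Itgb6, which pairs with the integrin alpha v subunit to release TGF-beta, had at most 3 counts in each dorsal library and 1.27 to 4.64 CPM in ventral replicates 2 to 5, with 0 counts in ventral replicate 1 (adjusted p = 0.00964), and no fold is given at this depth.

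Of the Id family, direct BMP targets, only Id4 was called. It averaged 271 ± 44.5 CPM dorsally and 130 ± 19.3 CPM ventrally (1.07 ± 0.13, adjusted p = 0.000114). Id2 averaged 147 ± 10.4 and 206 ± 66.3 CPM, with adjusted p = 0.0464 and a log2 fold change of -0.49 ± 0.18 under the threshold. Id1 at 2.91 ± 1.15 and 1.62 ± 0.738 CPM and Id3 at 6.16 ± 2.99 and 6.99 ± 0.963 CPM were not called (adjusted p = 0.101 and 0.765). These 3 Id genes outside the call were described after their values were seen.

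The libraries held 11138676 to 20594364 counts on genes. The share of read pairs on no annotated gene was 27.0 ± 5.09% in dorsal and 14.4 ± 2.997% in ventral libraries without overlap. Mitochondrially encoded mRNA stood at 2975 ± 305 and 784 ± 296 CPM, here of total counts without TMM scaling, also without overlap. Neither measure can be told apart from the dissected part. The MC markers Calb2 and Satb1 were ventral-enriched and Gria2 and Gria3 dorsal-enriched, with the calretinin gene Calb2 at 65.2 ± 9.32 and 616 ± 94.6 CPM. Drd2, at 28.1 ± 3.96 and 20.7 ± 4.36 CPM (edgeR adjusted p = 0.0517), and Calcrl (adjusted p = 0.892) were not called, and Csf2rb2 was under the filter. The sums of these 7 MC markers overlapped, at 1671 to 1958 CPM in dorsal and 1762 to 2074 CPM in ventral libraries. In that sum Gria2, averaging 1143 CPM dorsally and 651 CPM ventrally, and Calb2 changed in opposite directions. The overlap of the MC sum thus does not show an even MC content. The summed level of 8 astrocyte markers ranged from 1947 to 2231 CPM in dorsal and from 844 to 1430 CPM in ventral libraries, with 4 dorsal-enriched and 1 ventral-enriched. Without Slc1a2, left out after its level was seen, the sum of the remaining 7 overlapped, at 283 to 373 and 246 to 403 CPM. The sum of 7 oligodendrocyte markers ranged from 2360 to 2833 and from 844 to 1673 CPM, with 4 dorsal-enriched.

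Other marker lists overlapped between the groups in their sums. Of the mural cell and fibroblast list Col1a1 and Col1a2 were dorsal-enriched among 5 tested of 7, with sums of 98.3 to 141 and 103 to 114 CPM. Rgs5 made up most of that sum, averaging 104 dorsally and 99.7 ventrally, where the whole list averaged 117 and 106 CPM. The overlap of this sum thus says little of the other genes of the list, whose tested members had a median log2 fold change of 1.23 with Rgs5 included. Of 6 choroid plexus and ependyma markers 3 were dorsal-enriched, with sums of 122 to 964 and 178 to 423 CPM. Of 8 interneuron markers 3 were ventral-enriched, with sums of 3268 to 4363 and 3951 to 5191 CPM. Gad2 made up most of that sum, averaging 2853 dorsally and 3174 ventrally, where the whole list averaged 3766 and 4519 CPM. Every interneuron marker had a negative log2 fold change, with a median of -0.43. Gad1 (-0.46, edgeR adjusted p = 0.0103) and Npy (-0.40, adjusted p = 0.0311) stayed under the fold threshold. The overlap of this sum thus does not show an even interneuron content, and a sum without Gad2 was not tested. Of 5 granule cell markers 2 were dorsal-enriched, with sums of 363 to 432 and 174 to 375 CPM. These sums averaged 408 ± 26.5 and 275 ± 73.3 CPM, and the median log2 fold change was 0.72, with that of Dsp negative. Prox1, most of the sum, averaged 289 and 175 CPM without overlap, so the overlapping sums do not show an even granule cell content. No marker was called among 6 endothelial, 4 oligodendrocyte precursor and 6 CA pyramidal cell genes, and 1 of 8 microglial genes was dorsal-enriched. No listed marker was at 0 in every library, and the part of these cell types in the differences of the called members was not tested.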

How the data were processed

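Ribosome-bound RNA of 5 Dorsal and 5 Ventral libraries was analysed, with groups and replicate numbers from the sample labels. The authors amplified 500 pg of RNA with the Ovation kit, made TruSeq libraries, sequenced 50 bp paired ends, aligned with STAR 2.5.2b to GRCm38 and counted with HTSeq 0.7.2 per Ensembl gene. They deposited the raw whole-number counts, without normalization. The annotation release and the strand setting of the counting are not given in the sources used here, so genes that overlap another are given with the share of exon sequence they share. Rows of HTSeq that name no gene were left out of library sizes.

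The analysis used edgeR 4.0.16 under R 4.3.3. A gene entered the quasi-likelihood test if 2 or more libraries exceeded 1 CPM, with TMM scaling and Benjamini-Hochberg adjustment over the 16806 genes tested. Calls needed an adjusted p under 0.05 and group means (CPM plus 1) apart by more than 0.58 on the log2 scale. Both thresholds are the study's, whose methods do not say how its fold change was computed, and the fold changes printed are edgeR's own. The study reported fewer genes in each direction than the 2636 dorsal-enriched and 1655 ventral-enriched ones called here, and the reason was not tested. The shares over all tested genes are those of the calls made here. Standard errors are the log2 fold change over the square root of F. The GENCODE vM21 annotation of this build gave symbols, lengths and GC content for 54809 of 54838 identifiers. The study's methods describe hippocampi of the same mice divided into both parts and pooled by 5, but neither they nor the labels say that same-numbered Dorsal and Ventral pools share mice, so the block was an alternative only.

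Alternatives were DESeq2's size factors or total counts, no filter or a CPM above 1 in 5 libraries, DESeq2 1.42.0, edgeR's fold change for the threshold, no fold threshold, a block for the replicate number, a GC and length correction fitted with mgcv 1.9.3, both together, protein-coding genes alone, each library left out in turn and, chosen after seeing the data, the dispersions of edgeR 3. The count test was tested on simulated data.

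The members, their roles and the gene lists were chosen with earlier results of these data known. Values per library are given for each called member and for each tested ligand, receptor or Smad without overlap, and group means for other tested members with a mean of at least 5 CPM and the most abundant one of a role that has none. Of other pathway genes all called ones are named, with values for the 3 largest fold changes a direction. Depths allow 3 counts to be seen at 0.142 to 0.282 CPM. These floors cover counting error only, and amplified reads are not independent molecules. The SDs and standard errors are taken over the libraries. All 10 libraries entered the main results, and 1 item that meets the naming rule is not reported here.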

Additional observations from a re-analysis of the deposited data

Results flagged for a closer look

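Among 54 named genes in 2 groups, 108 sets of 5 libraries, 10 held a library whose gap to its nearest neighbour exceeded 0.71 of the range of its group (Dixon's 95% limit for 5 samples), where chance gives about 1 in 20. Dorsal replicate 2 was the high library for Smad7 (67.6 CPM, next 28.1), Smad9 (10.8 CPM, next 5.86) and Acvr1c (38.6 CPM, next 18.3). Dorsal replicate 1 was high for Smad2 (46.3 CPM, next 27.6) and for the co-receptor gene Neo1 (69.7 CPM, next 47.9). Ventral replicate 1 was high for Bmpr2 (525 CPM, next 391) and for the target gene Ccn2 (27.5 CPM, next 12.7). Ventral replicate 2 was low for Fstl1 (11.97 CPM, next 22.7) and for Acvr1 (6.52 CPM, next 12.9), and ventral replicate 3 was low for Fbn1 (1.44 CPM, next 1.997).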

How the results depend on the processing

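The call held for 10 of the 12 called members in all 22 alternative settings, and Bmpr1a and Acvr2a lost it under the GC and length correction, with and without the replicate block. The count of dorsal-enriched members ranged from 10 to 15, from 11 to 15 with a library left out. The count of ventral-enriched members was 2 with no expression filter, with DESeq2's test, with the replicate block and with the GC and length correction, 3 with the block and that correction together, and 1 to 2 with a library left out. The genes gained there were Chrd, Fstl5, Smad2 (without dorsal replicate 1) and Gdf9 (without ventral replicate 3).

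Same-numbered libraries did not deviate together (correlations of -0.032 to 0.069, mean 0.016). No pairing by number was thus seen, though such correlations cannot exclude that same-numbered pools share mice. The block called 13 members dorsal-enriched and 2 ventral-enriched. Over all tested genes, protein-coding genes alone gave 1665 dorsal-enriched genes in place of 2636, and the ventral-enriched count of 1655 became 2503 with the GC and length correction and 2534 with the block added. Of other pathway genes, 17 were dorsal-enriched with no fold threshold and 7 with either GC and length correction, under which 10 were ventral-enriched. With a library left out, these counts ran from 2105 to 2670 and from 1216 to 1815 for all genes, and from 9 to 12 and from 5 to 7 for the pathway genes. The GC and length correction was computed for genes with both values, 99.9% of those tested, and it moved the median of all genes to -0.13, while no filter moved it to 0.11.

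Signs turned in 11 uncalled genes, most with log2 fold changes near 0, the exceptions being Bmpr2 (0.39), Acvr1c (-0.33) and Bmpr1b (0.19). Under the GC and length correction, without and with the block, the values were -0.028 and -0.026 for Smad4, -0.015 and -0.019 for Smad5, -0.068 and -0.032 for Bmp3, -0.091 and -0.12 for Tgfb2, -0.043 and -0.050 for Fstl1, 0.040 and 0.14 for Bmp7 and -0.12 and -0.11 for Bmpr2, and Smad7 was at 0.021 under the correction alone. Bmp7 was also at 0.068 with DESeq2's test, 0.0080 with the block and 0.034 with edgeR 3 dispersions. With a library left out, the log2 fold change ran from -0.037 to 0.12 for Smad4, -0.52 to 0.10 for Smad7, -0.012 to 0.30 for Ltbp4, -0.044 to 0.32 for Bmp3, -0.41 to 0.25 for Bmp7, -0.095 to 0.21 for Tgfb2, -0.12 to 0.12 for Fstl1, -0.67 to 0.053 for Acvr1c and -0.11 to 0.71 for Bmpr1b. The cause was not tested. Depth limits the scarce members: 16 tested ones had a mean under 5 CPM in both groups, and a change in the 16 members below the filter was not detectable at this depth.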
